A study of Mus musculus with 100 samples.

Results

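RNA of intra-abdominal fat from mice on normal chow at 19 weeks of age was compared between animals labelled as adipocyte knockouts of Gps2 and animals labelled wild type. The comparison took 24 of the 100 libraries of the series. Libraries that differed only in a leading number of the title were repeat libraries of 1 replicate, with 4 for each, and were averaged, which left 3 replicates labelled knockout and 3 labelled wild type. The genotype stands in the titles alone: the strain entry gives floxed Gps2 alleles with Adipoq-Cre for all libraries, so what the wild-type animals carry is not stated beyond their label. Adipoq-Cre acts in adipocytes, and whole fat also holds vascular, stromal and immune cells that keep their own Gps2. Both groups received chow and no other agent. The series asks which genes depend on GPS2 in adipocytes in obesity and when fat is stimulated through beta receptors; the chow animals give the effect without a dietary load. No label says that the replicates came from separate animals, so a p-value here covers the spread among these samples alone, and that spread could be technical.

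GPS2 belongs to the NCoR corepressor complex, which binds unliganded nuclear receptors and carries the deacetylase HDAC3 to their target genes. GPS2 is also known as an inhibitor of a ubiquitin-conjugating enzyme that acts in insulin and inflammatory signalling, and as a factor that travels from mitochondria to the nucleus. White adipocytes make fatty acids, triglyceride and some cholesterol of their own, and the SREBP transcription factors raise the genes of these pathways when sterols are scarce or insulin is high. Mast cells, macrophages and lymphocytes live in the stroma of the same tissue.

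Values are normalised reads, namely counts that were scaled by each library's size factor. Depth was 47855046 to 56790209 reads in a replicate over 29493 genes, with 1 transcript standing for each. The replicates did not spread evenly. Those labelled knockout 1 and 2 were nearly alike, with a Pearson correlation of 0.996 over the log2 values of the genes tested, and a chi-square per degree of freedom of 2.54 to 3.06 between their libraries, against 1.04 to 1.16 between repeat libraries of 1 replicate. Knockout 3 was closest to wild type 3, with a correlation of 0.980 and a chi-square per degree of freedom of 45.4 to 57.1. Wild type 1 correlated with both at 0.948 and 0.950, and the other pairs lay between 0.795 and 0.830.

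The tissue label fitted the adipocyte markers, of which 15 or 16 of 16 stood at 50 normalised reads or more in every replicate. Their mean log2 level was 14.03, 14.02 and 14.64 in the libraries labelled knockout, against 14.19, 13.04 and 14.52 in the wild-type libraries, so that wild type 2 was the lowest. Markers of other tissues were unevenly spread. Mean levels of 17 epididymis and testis markers were 7.22, 7.17 and 0.55 in the libraries labelled knockout, against 1.24, 2.76 and 0.27 in the wild-type libraries. Of these, 11 reached 50 normalised reads in knockout 1 and in knockout 2, and 2 in wild type 2, among them Crisp1. In knockout 3, wild type 1 and wild type 3 none did. Epithelial markers followed the same split, with all 14 at 50 or more in knockout 1, knockout 2 and wild type 2, against 1 in knockout 3, 5 in wild type 1 and 2 in wild type 3. Of the 9 mammary markers, Csn1s1, Csn1s2a, Csn2, Csn3, Wap and Lalba were below the filter on low values; the others, basal keratins and Trp63, were again higher in knockout 1, knockout 2 and wild type 2.

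Wild type 2 also held skeletal muscle RNA. Acta1, the skeletal muscle actin, had 161, 170.5 and 49.1 normalised reads in the libraries labelled knockout, against 517, 3155 and 251 in the wild-type libraries, and Ckm, the muscle creatine kinase, had 3.69, 8.84 and 0 under the knockout label, against 0, 2384 and 0.283 under the wild-type label. Wild type 1 carried the most B cell RNA, with a mean marker level of 7.67 against 2.99 to 4.64 in the other 5 replicates, and the highest mesothelial and macrophage levels (8.06 and 9.52). Red blood cell markers lay between 10.08 and 11.42 in all 6 replicates, with 4 of 5 higher under the knockout label, against 61.8% of all genes. Because of these differences, results below are also given for 2 smaller comparisons between replicates of like epithelial level. They set knockout 3 against wild type 1 and 3, and knockout 1 and 2 against wild type 2. Other markers are not matched in them. Epididymis and testis levels were 7.22 and 7.17 in knockout 1 and 2, against 2.76 in wild type 2. The B cell level was 4.60 in knockout 3, against 7.67 and 2.99 in wild type 1 and 3. In RNA of whole tissue, fewer cells of a type and less RNA per cell cannot be told apart.

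**Figure D1:**
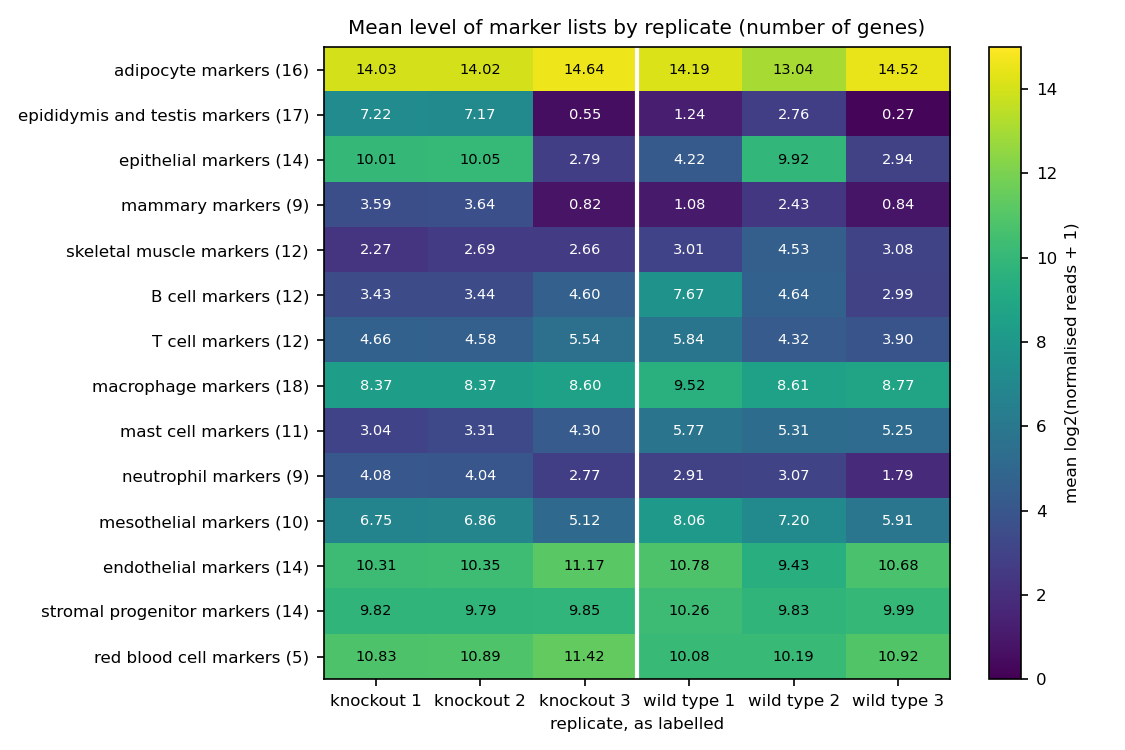
Mean log2(normalised reads + 1) of 14 marker lists (rows, with the number of genes) in each of the 6 replicates (columns, knockout label left, wild type right), as colour and as printed values. Knockout 1, knockout 2 and wild type 2 share epithelial levels near 10, against 2.79 to 4.22 in the other 3, and wild type 1 has the highest B cell level, 7.67.

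The targeted gene was measured first. Gps2 (chr11:69913888-69916591, plus strand, GRCm38) had 553, 575 and 663 normalised reads in the libraries labelled knockout, against 588, 468 and 701 in the wild-type libraries. The ranges overlapped, and the log2 fold change was 0.04 ± 0.18 (SE, n = 3 and 3; limma adjusted p = 0.941), or -0.07 after TMM scaling. This full-length transcript has 10 exons, and which exons the floxed alleles remove is not stated in the labels. A lower Gps2 level was therefore not seen in the libraries labelled knockout, and they are called by their label throughout.

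Of the 7 members of the corepressor complex, Gps2 included, 5 had a positive fold change, a share near the 61.8% of all genes. After TMM scaling 4 of 7 did, against 49.5%. The median was 0.25 (0.13 after TMM scaling, -0.07 by edgeR and -0.08 by DESeq2). Tbl1x, a WD-repeat subunit that exchanges corepressor for coactivator, had 2483, 2374 and 1999 normalised reads in the libraries labelled knockout, against 1557, 1632 and 1937 in the wild-type libraries, without overlap (log2 fold change 0.42 ± 0.16). Its paralogue Tbl1xr1 overlapped, at 0.25 ± 0.18, as did the deacetylase Hdac3, at 0.26 ± 0.25. The platform protein gene Ncor1 had a fold change of -0.12 ± 0.16. Coro2a, an actin-binding member, followed the epithelial split instead of the genotype, with 1362, 1448 and 120.2 under the knockout label, against 228, 2523 and 242 under the wild-type label.

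Across all genes, limma on log2(normalised reads + 1) tested 15621 genes with a mean of 10 or more and called 0 (0.0%) at an adjusted p under 0.05. At an unadjusted limma p under 0.05, 1506 genes (9.64%) differed, of which 1131 (7.24%) were higher and 375 (2.4%) lower in the libraries labelled knockout. The quasi-likelihood test of edgeR on recovered reads also called 0 of 17911 genes, with 1000 higher and 918 lower at an unadjusted p under 0.05. DESeq2 on the same reads called 616 higher and 302 lower of 18436. The deposited scale shifts the whole comparison: over all genes the log2 fold change had a median of 0.11, and of 0.00 after TMM scaling, with 724 genes higher (4.63%) and 742 lower (4.74%) at an unadjusted p under 0.05 of 15640. Fold changes below are as deposited and should be read against that 0.11.

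The calls depend on knockout 3. Without it, limma called 626 higher (3.99%) and 24 lower (0.153%) of 15693 genes at an adjusted p under 0.05, and 351 of those 650 were also among the 918 of DESeq2. With knockout 3 against wild type 1 and 3, limma called 1 gene, Nnat, an imprinted gene of a proteolipid in the endoplasmic reticulum. That fit has 1 replicate under the knockout label, which is assumed to vary like wild type, so its spread comes from the 2 wild-type replicates alone. Nnat had 6373, 6428 and 2289 normalised reads in the libraries labelled knockout, against 39856, 9282 and 40659.9 in the wild-type libraries, so that all replicates under the knockout label lay below all wild-type ones, of which wild type 2 was far below its fellows. In the 6 replicates its log2 fold change was -2.44 ± 0.72 (limma adjusted p = 0.503). Because no gene passed limma on the 6 replicates, genes are described below by their values and by whether the 3 knockout values all lay above (1940 of the 15621 genes, 12.4%) or all below (710, 4.55%) the 3 wild-type values.

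Genes of cholesterol synthesis were higher in the libraries labelled knockout. All 20 members passed the filter and all 20 had a positive fold change, against 61.8% of all genes (49.5% after TMM scaling). In 12 of 20 the groups did not overlap, all with the knockout label above, against 12.4% of all genes, and 12 were higher at an unadjusted limma p under 0.05, against 7.24%. The median log2 fold change was 1.15, and 1.04 after TMM scaling. DESeq2 called 7 of 20 higher, namely Acat2, Mvd, Lss, Cyp51, Msmo1, Nsdhl and Dhcr7, against 3.34% of all genes.

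The first steps make mevalonate from acetyl-CoA. Acat2, the cytosolic acetoacetyl-CoA thiolase, had 2465, 2475 and 2111 normalised reads in the libraries labelled knockout, against 554, 633 and 973 in the wild-type libraries (chr17:12942890-12960747, minus strand). The groups were far apart, and the log2 fold change was 1.74 ± 0.23; reads of the near-identical Acat3 may be counted here. Hmgcs1, the synthase of HMG-CoA, had 3316, 3023 and 5869.8 under the knockout label, against 2497, 1172 and 1634 under the wild-type label (1.21 ± 0.37), with knockout 3 well above the other replicates.

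Mevalonate is next turned into isoprenoid units and joined to squalene. Mvd, the decarboxylase that ends the mevalonate steps, had 301, 303 and 510.2 normalised reads in the libraries labelled knockout, against 94.3, 118 and 151 in the wild-type libraries (1.59 ± 0.29), without overlap. The kinases before it overlapped, with fold changes of 0.88 ± 0.49 for Pmvk and 0.18 ± 0.23 for Mvk. Idi1, the isomerase of the isoprenoid unit, was low but without overlap at 29.3, 34.8 and 29.7 under the knockout label, against 14.3, 17.9 and 12.8 under the wild-type label (1.02 ± 0.34). Fdps, which makes farnesyl diphosphate, had 1627, 1674 and 1056 under the knockout label, against 212, 878 and 289.8 under the wild-type label (1.91 ± 0.54). Wild type 2 was the highest of its group for Fdps and still below every knockout value; 81.3% of the chosen transcript overlaps exons of another gene, whose reads cannot be told apart here. Fdft1, the squalene synthase, overlapped (0.58 ± 0.26).

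The steps from squalene to cholesterol include the gene of the largest fold change. Sqle, the squalene epoxidase, had 499, 475 and 351 normalised reads in the libraries labelled knockout, against 101, 279 and 129 in the wild-type libraries (1.5 ± 0.40), and Lss, which closes the ring to lanosterol, had 487, 474 and 911 under the knockout label, against 219.5, 272 and 207 under the wild-type label (1.36 ± 0.29). Cyp51, the lanosterol demethylase, had 2033, 1978 and 6006 normalised reads in the libraries labelled knockout, against 265, 465 and 489 in the wild-type libraries (chr5:4081145-4104746, minus strand). Knockout 3 was far above the other knockout replicates, all 3 lay above wild type, and the log2 fold change of 2.88 ± 0.50 was the largest of the list. Msmo1, the methylsterol oxidase, had 1007, 921 and 1168 normalised reads in the libraries labelled knockout, against 247, 294 and 449 in the wild-type libraries (1.68 ± 0.24; chr8:64718139-64733792, minus strand). Nsdhl, which removes the carbon that Msmo1 oxidises, had 954, 868 and 1130.3 under the knockout label, against 280.2, 359 and 545 under the wild-type label (1.36 ± 0.26). Both were without overlap, as were the ketone reductase Hsd17b7 (1.06 ± 0.26) and Dhcr7 (1.10 ± 0.26), the enzyme that makes cholesterol from its last precursor. The groups overlapped for Tm7sf2 (1.73 ± 0.75), Sc5d (0.90 ± 0.46) and Ebp (0.30 ± 0.18), a reductase, a desaturase and an isomerase.

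The smaller comparisons reuse the same replicates, so the 12 genes without overlap could only lie above in both. Only the genes with overlap were free to differ. Knockout 3 lay above wild type 1 and 3 in all 20 genes, against 44.4% of all genes, with a median difference of 1.51. Knockout 1 and 2 lay above wild type 2 in 19 of 20, against 60.4%, with a median difference of 0.94. In that comparison adipocyte markers differed by more, a median of 1.26 with 14 of 16 above, and the part of adipocyte content was not tested; with knockout 3 against wild type 1 and 3 their median was 0.23.

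Because these genes were higher together, their promoters are shown for the letters of factors known to act on them, as a description of sequence alone. RefSeq promoters (GRCm38.p6, 250 bases before to 50 after the start) were found for 15 of the 20 genes. The sterol response element TCACNCCAC, the site of SREBP, was searched on both strands. It was found in 1 of the 15, Hmgcs1 (6.67%), against 1.38% of 11558 genes tested that have a promoter in the table. CCAAT, the box bound by NF-Y, was in 14 of 15 (93.3%), against 42.1%, and GGGCGG, a GC box, in 14 of 15 (93.3%), against 65.7%. A stretch may count for more than 1 motif, and no match says only that these letters are not in the window. The promoter of Hmgcs1 is shown with its sterol response element in capitals, at -137 from the start (chr13:119690101-119690400, plus strand). Those of Cyp51 (chr5:4104648-4104947, minus strand) and Msmo1 (chr8:64733529-64733828, minus strand), picked after their values were seen, are shown with CCAAT of the printed strand in capitals, which begins at -29 from the start in Cyp51 and at -160, -96 and -55 in Msmo1.
Hmgcs1: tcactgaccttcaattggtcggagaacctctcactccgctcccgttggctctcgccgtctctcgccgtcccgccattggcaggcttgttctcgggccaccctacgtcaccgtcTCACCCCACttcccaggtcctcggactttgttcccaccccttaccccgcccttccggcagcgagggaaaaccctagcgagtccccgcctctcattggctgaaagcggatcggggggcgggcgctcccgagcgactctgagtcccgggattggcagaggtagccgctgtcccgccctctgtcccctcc
Cyp51: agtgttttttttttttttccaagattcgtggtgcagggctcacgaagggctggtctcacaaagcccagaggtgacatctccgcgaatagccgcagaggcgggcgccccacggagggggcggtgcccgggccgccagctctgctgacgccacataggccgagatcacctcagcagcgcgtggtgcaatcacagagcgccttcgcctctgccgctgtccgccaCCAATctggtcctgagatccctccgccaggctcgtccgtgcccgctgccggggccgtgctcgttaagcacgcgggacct
Msmo1: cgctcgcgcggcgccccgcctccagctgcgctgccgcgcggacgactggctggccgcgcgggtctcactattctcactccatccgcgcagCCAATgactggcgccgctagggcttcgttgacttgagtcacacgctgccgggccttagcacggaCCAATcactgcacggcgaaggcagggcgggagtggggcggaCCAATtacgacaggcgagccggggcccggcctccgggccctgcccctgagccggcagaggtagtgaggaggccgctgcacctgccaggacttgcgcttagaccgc

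**Figure D2:**
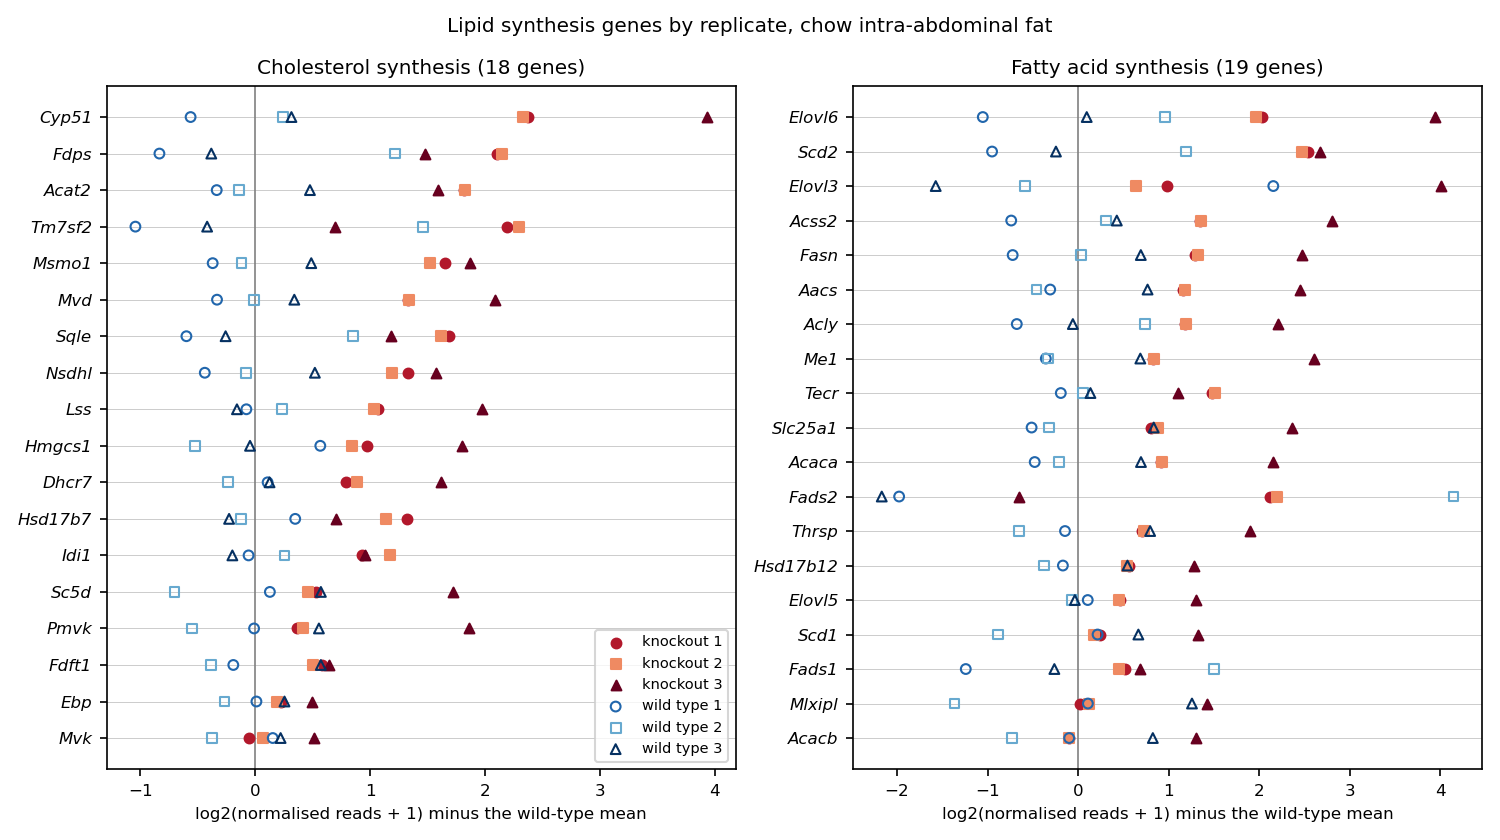
Each point is 1 replicate (filled, knockout label; open, wild type), as log2(normalised reads + 1) minus the mean of the wild-type replicates, for 18 of the 20 cholesterol synthesis genes and the 19 fatty acid synthesis genes in order of fold change. Knockout points lie right of all wild-type points in 12 of the 18 and 10 of the 19 genes, and knockout 3 is far to the right for Cyp51, Elovl6 and Fasn.

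Regulators of sterol level were mixed. Of 14 of 15 members that passed the filter, 12 had a positive fold change, against 61.8% of all genes, and 3 were without overlap, against 12.4%. The median was 0.26 (0.14 after TMM scaling). Srebf1, the gene of the SREBP that drives fatty acid genes, had 7648, 7717 and 8829.6 normalised reads in the libraries labelled knockout, against 3205, 2914 and 6204 in the wild-type libraries (1.06 ± 0.32). Insig1, which holds SREBP in the endoplasmic reticulum and is itself an SREBP target, had 2004, 1889 and 8207 under the knockout label, against 609.9, 385 and 1345 under the wild-type label (2.21 ± 0.72), with knockout 3 the highest by far. Npc2, a lysosomal cholesterol carrier that is also abundant in epididymal fluid, had 42801, 43429.7 and 11229 under the knockout label, against 9841, 4647 and 8302 under the wild-type label (1.93 ± 0.61); the 2 high values are those of the replicates with epididymal markers. Srebf2 (0.26 ± 0.30), the SREBP of the cholesterol genes, and Scap (0.22 ± 0.36), its escort, overlapped. So did Stard4 (0.89 ± 0.38), a sterol carrier, and Mbtps2 (0.26 ± 0.20), a protease that activates SREBP.

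LXR targets, which rise when sterols are plentiful and are known to be held down by the corepressor complex, were split. Of 10 of 12 that passed the filter, 5 were higher and 5 lower, against 61.8% and 38.2% of all genes, with a median of -0.13. Srebf1, also on this list, was the single member above wild type in all replicates. Nr1h2, the gene of LXR beta, lay below, with 1070.2, 1089 and 1071 normalised reads in the libraries labelled knockout, against 1229, 1486 and 1387 in the wild-type libraries (-0.34 ± 0.13). Abca1 and Abcg1, the cholesterol exporters, had fold changes of 0.23 ± 0.26 and -0.69 ± 0.44, the phospholipid transfer protein Pltp -0.40 ± 0.24, Nr1h3, the gene of LXR alpha, 0.49 ± 0.47 and the apolipoprotein Apoc1 -0.58 ± 0.62; all 5 overlapped.

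Fatty acid synthesis had the highest median of the 26 pathway lists, 1.35 (1.23 after TMM scaling). All 19 genes had a positive fold change, against 61.8% of all genes. In 10 of 19 the knockout values lay above without overlap, against 12.4%, and 11 were higher at an unadjusted limma p under 0.05, against 7.24%. DESeq2 called 6 higher, against 3.34% of its genes. The chain begins with citrate leaving the mitochondrion: the carrier Slc25a1 had 6526, 6866 and 19152 under the knockout label, against 2617, 2989 and 6663 under the wild-type label (1.35 ± 0.55), with knockout 1 just below wild type 3. Acly, which splits citrate to acetyl-CoA, had 8962, 9041 and 18227 normalised reads in the libraries labelled knockout, against 2470.3, 6574 and 3794 in the wild-type libraries (1.53 ± 0.46), and Acss2, which makes acetyl-CoA from acetate, had 3019, 3034 and 8283 under the knockout label, against 712, 1474 and 1598 under the wild-type label (1.83 ± 0.51). Both were without overlap and highest in knockout 3.

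Acaca, the rate-limiting carboxylase, had 6129, 6180.5 and 14462 normalised reads in the libraries labelled knockout, against 2334, 2803 and 5265 in the wild-type libraries (1.33 ± 0.46). Fasn, the synthase, had 57871, 59147 and 131472 under the knockout label, against 14337, 24152 and 38222 under the wild-type label (1.70 ± 0.51). In both genes all knockout values were above all wild-type ones, and knockout 3 was the highest replicate. Me1, a source of NADPH, had a log2 fold change of 1.42 ± 0.58, and Aacs, which feeds acetoacetate into lipid synthesis, one of 1.60 ± 0.49, both without overlap. The elongase Elovl6 had 1707, 1623 and 6399 normalised reads in the libraries labelled knockout, against 200.04, 808 and 444 in the wild-type libraries (2.65 ± 0.72). Tecr, the reductase that ends each round of elongation, had 6309.8, 6456 and 4865 under the knockout label, against 1977, 2344 and 2480.2 under the wild-type label (1.37 ± 0.19; chr8:83571698-83607971, minus strand). Elovl6 was much higher in knockout 3 than in knockout 1 and 2, while for Tecr knockout 3 was the lowest of its group, still above every wild-type value.

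The desaturases differed among themselves. Scd2 had 14114, 13501 and 15542 normalised reads in the libraries labelled knockout, against 1259.96, 5573 and 2055 in the wild-type libraries (2.56 ± 0.54), without overlap. Scd1, the adipose form, overlapped with 294017, 280335 and 622144 under the knockout label, against 288056, 134840.0 and 393572 under the wild-type label (0.58 ± 0.58); reads of the Scd genes may be shared. Fads1 (0.55 ± 0.67) and Fads2 (1.22 ± 1.85), the desaturases of polyunsaturated fatty acids, were highest in wild type 2. Elovl3 overlapped too, with 10.2, 7.82 and 90.1 under the knockout label, against 24.3, 2.79 and 0.911 under the wild-type label (1.87 ± 1.35). It passed the filter through knockout 3, so it adds no weight to the list's counts. The regulators Mlxipl, the gene of ChREBP, and Thrsp, its target, had fold changes of 0.52 ± 0.73 and 1.11 ± 0.51 and overlapped.

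Knockout 3 lay above wild type 1 and 3 in all 19 genes, against 44.4% of all genes, by a median of 2.04. Knockout 1 and 2 lay above wild type 2 in 17 of 19, against 60.4%, by a median of 1.13. The 10 genes without overlap could only lie above in both. Adipocyte markers differed in part along with these comparisons: their median fold change was 0.31 in the 6 replicates, 0.23 with knockout 3 against wild type 1 and 3, and 1.26 with knockout 1 and 2 against wild type 2, and 0 of 16 were without overlap.

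The pentose phosphate pathway, which supplies NADPH for lipid synthesis, was higher in 7 of 7 genes, 3 of them without overlap (against 61.8% and 12.4% of all genes), with a median of 0.54. Tkt, the transketolase, had 13145, 13547 and 24365 normalised reads in the libraries labelled knockout, against 6906, 7229 and 10837 in the wild-type libraries (1.00 ± 0.33). Pgls (0.54 ± 0.20), the lactonase, and Rpe (0.54 ± 0.22), the epimerase, were the other genes without overlap. G6pdx, the first enzyme, overlapped (0.30 ± 0.31), as did Pgd (0.69 ± 0.38) and Taldo1 (0.64 ± 0.36). After TMM scaling 6 of 7 were higher, against 49.5% of all genes.

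Triglyceride synthesis was higher in 12 of 12 genes, against 61.8% of all genes, with 4 without overlap, against 12.4%, and a median of 0.72. Mogat2, which adds an acyl chain to monoacylglycerol, had 231, 265 and 351 normalised reads in the libraries labelled knockout, against 69.1, 26.4 and 57.6 in the wild-type libraries (2.53 ± 0.40; chr7:99219084-99238619, minus strand). Every knockout value was far above every wild-type value. Acsl1, the acyl-CoA synthetase of fat, had 23495, 22743 and 26506 under the knockout label, against 13027, 12471 and 16437 under the wild-type label (0.80 ± 0.22), and Gpam, the first acyltransferase of the glycerol route, 1879, 1920.5 and 1629 under the knockout label, against 1364, 1219 and 1072 under the wild-type label (0.57 ± 0.15). Gpd1, which makes the glycerol backbone, was without overlap at 0.77 ± 0.35. Dgat1 was among the 8 genes that overlapped, with Dgat2 (0.96 ± 0.62), Gpat3 (1.00 ± 0.49) and Pck1 (0.19 ± 0.42), the enzyme of glycerol formation from pyruvate.

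Lipolysis and lipid droplet genes stayed near the median of all genes, with 12 of 15 positive, against 61.8% of all genes, and a median of 0.21. The lipases Pnpla2 (0.16 ± 0.41), Lipe (0.17 ± 0.45) and Mgll (-0.10 ± 0.26) overlapped. Plin5, a perilipin that ties droplets to mitochondria, had 469, 458 and 386 normalised reads in the libraries labelled knockout, against 118, 72.4 and 295 in the wild-type libraries (1.67 ± 0.50), without overlap. Plin2, a perilipin of small droplets, was without overlap too, at 1.06 ± 0.52, while Abhd5 (0.57 ± 0.27), the lipase coactivator, Lpl (0.91 ± 0.52), the lipoprotein lipase, Cidec (0.71 ± 0.47), a droplet fusion protein, and G0s2 (0.68 ± 0.76), a lipase inhibitor, overlapped.

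Mitochondrial genes were higher in several lists. Of the 13 protein genes of the mitochondrial genome, 11 were in the table and 7 passed the filter, while mt-Nd3, mt-Co2, mt-Co3 and mt-Atp6 were below it. All 7 had a positive fold change, against 61.8% of all genes, 5 without overlap, against 12.4%, and the median was 0.97. mt-Nd2, a subunit of complex I, had 57937, 51398 and 64315 normalised reads in the libraries labelled knockout, against 17719, 20627 and 35781 in the wild-type libraries (1.29 ± 0.33), and mt-Co1, of complex IV, had 140104, 124383 and 167366 under the knockout label, against 69500.0, 74116 and 102546 under the wild-type label (0.82 ± 0.31). Wild type 3 was the highest of its group in both genes and lay below every knockout value. mt-Cytb (0.97 ± 0.37), mt-Nd4 (0.98 ± 0.36) and mt-Nd5 (0.59 ± 0.24) were also without overlap; mt-Nd1 (1.02 ± 0.44) and mt-Nd6 (0.76 ± 0.34) were not. The median was 1.07 with knockout 3 against wild type 1 and 3 and 1.00 with knockout 1 and 2 against wild type 2.

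Of the 37 nuclear genes of complex I, 36 had a positive fold change, against 61.8% of all genes, and 12 were without overlap, against 12.4%, with a median of 0.48 (0.36 after TMM scaling). Knockout 3 lay above wild type 1 and 3 in all 37, against 44.4% of all genes, and knockout 1 and 2 above wild type 2 in 33, against 60.4%. The 12 without overlap could only lie above in both. Ndufa1, an accessory subunit on the X chromosome, had 2116, 2192 and 1846 normalised reads in the libraries labelled knockout, against 900.3, 1049.95 and 1119 in the wild-type libraries (1.00 ± 0.15). Ndufb7 (0.75 ± 0.18), Ndufb11 (0.56 ± 0.16), Ndufb3 (0.81 ± 0.24), Ndufb10 (0.64 ± 0.22) and Ndufa3 (0.61 ± 0.21), accessory subunits as well, followed it. The other member, Ndufb2, stood at 0.00 ± 0.21.

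Complexes III to V and cytochrome c were like complex I, with 35 of 37 positive and 13 above and 1 below without overlap, against 12.4% above and 4.55% below among all genes, and a median of 0.46. Cox4i1, the common form of a complex IV subunit, had 16996, 17372 and 17728 normalised reads in the libraries labelled knockout, against 8300.5, 7089 and 10532 in the wild-type libraries (1.03 ± 0.22). Cox7c, of the same complex, had 1783, 1859.99 and 2417 under the knockout label, against 940.2, 869 and 1288 under the wild-type label (0.98 ± 0.21). The gene of cytochrome c, Cycs, had a fold change of 0.87 ± 0.20 and Uqcrh, of complex III, one of 0.73 ± 0.22, both without overlap. Cox6c (0.67 ± 0.22) was also higher. Cox7a1, the form of muscle and brown fat, went the other way, with 20.3, 22.2 and 24.6 normalised reads in the libraries labelled knockout, against 34.01, 72.9 and 57.1 in the wild-type libraries (-1.19 ± 0.37), and its highest value was in wild type 2, the replicate with skeletal muscle markers.

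Pyruvate oxidation and the TCA cycle had 24 of 28 genes positive, against 61.8% of all genes, and a median of 0.42, but its 4 genes without overlap are a share near the 12.4% of all genes. Pdk1, a kinase that restrains pyruvate dehydrogenase, had 1359, 1312 and 1246 normalised reads in the libraries labelled knockout, against 488, 734 and 719 in the wild-type libraries (1.04 ± 0.19). Suclg2, a subunit of succinyl-CoA ligase, was without overlap (0.63 ± 0.19), as were Dlat (0.70 ± 0.29), of pyruvate dehydrogenase itself, and Sdhc (0.42 ± 0.22), of succinate dehydrogenase. Pdhb (0.87 ± 0.37), Pdhx (0.67 ± 0.30) and the pyruvate carrier gene Mpc1 (0.67 ± 0.28) overlapped. Fatty acid oxidation stood apart from these lists, with 13 of 21 genes positive, a share near the 61.8% of all genes. In it 0 were above wild type without overlap and the median was 0.12 (0.01 after TMM scaling). Its gatekeeper Cpt1a lay below wild type, with 669, 644 and 883 normalised reads in the libraries labelled knockout, against 1263, 1566 and 1119 in the wild-type libraries (-0.85 ± 0.19), while Acadm (0.36 ± 0.33), Echs1 (0.49 ± 0.37), Hadhb (0.40 ± 0.25), Acaa1a (0.26 ± 0.23) and Acaa2 (-0.28 ± 0.30), enzymes of the beta-oxidation spiral, overlapped. Branched-chain amino acid catabolism had 20 of 21 positive, against 61.8% of all genes, with a median of 0.25. Its 2 genes without overlap are a share below the 12.4% of all genes. They were Acadsb (0.54 ± 0.23), a short-chain acyl-CoA dehydrogenase, and Ppm1k (0.59 ± 0.27), the phosphatase that activates the pathway's dehydrogenase.

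Antioxidant genes were higher in 19 of 21 cases, against 61.8% of all genes, 9 of them without overlap, against 12.4%, with a median of 0.51. Prdx1, a cytosolic peroxiredoxin, had 8359, 8115 and 10984 normalised reads in the libraries labelled knockout, against 5351, 4384 and 6233 in the wild-type libraries (0.78 ± 0.22), and Prdx3, its mitochondrial relative, had 2589.9, 2465 and 3118 under the knockout label, against 1555, 1747 and 2064 under the wild-type label (0.61 ± 0.17). Txn1 (0.50 ± 0.15), the thioredoxin that reduces them, Gclc (0.59 ± 0.19), the rate-limiting enzyme of glutathione synthesis, and the glutathione transferases Gsta4 (0.91 ± 0.28) and Gsta3 (1.33 ± 0.48) were without overlap. Nqo1, a target of NRF2, was high in knockout 1 and 2 alone, with 907, 884 and 137 under the knockout label, against 93.6, 215 and 137 under the wild-type label (1.77 ± 0.79).

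Chaperones of the endoplasmic reticulum showed a similar split, and here the count over 6 replicates hides it. The list of 18 had 14 positive and 5 without overlap, against 61.8% and 12.4% of all genes, and a median of 0.60. Hspa5, the master chaperone BiP, had 14950.4, 14608 and 3979 normalised reads in the libraries labelled knockout, against 3941, 4247 and 3413 in the wild-type libraries (1.31 ± 0.54). Pdia6, a disulfide isomerase, had 8011, 8019 and 2328 under the knockout label, against 2319, 2013 and 2038 under the wild-type label (1.32 ± 0.50), and Calr, calreticulin, had 13427, 13734 and 4960.3 under the knockout label, against 4233, 4947 and 4676 under the wild-type label (1.07 ± 0.42). In all 3 genes knockout 1 and 2, the replicates with epididymal markers, were high, and knockout 3 lay within the wild-type range or just above it. The median was 0.11 with knockout 3 against wild type 1 and 3, near that of all genes, and 0.78 with knockout 1 and 2 against wild type 2. The 5 without overlap were Pdia6 and Calr, by small margins in knockout 3, Dnajb9, a co-chaperone (623, 510.4 and 441 under the knockout label, against 216, 268 and 303 under the wild-type label; 1.00 ± 0.20), Xbp1 (0.60 ± 0.22), a transcription factor of the response, and Hsp90b1 (0.95 ± 0.34), a chaperone. The part of the other tissue in these values was not tested.

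Glycolysis had 15 of 17 genes positive, against 61.8% of all genes, 4 without overlap, against 12.4%, and a median of 0.30 (0.18 after TMM scaling). Pgk1 had 681, 683 and 974 under the knockout label, against 454, 525 and 523 under the wild-type label (0.62 ± 0.18) and Pkm, the pyruvate kinase, was without overlap at 0.43 ± 0.17. Pgam1 (0.30 ± 0.15) and Pfkl (0.23 ± 0.12) were too, by small margins, while Aldoa (0.76 ± 0.37) and Tpi1 (0.43 ± 0.26) overlapped.

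Genes outside these lists were named by the size of p among those without overlap. Of the 15 higher, Acat2, Msmo1, Tecr, Ndufa1 and Mogat2 are given above. Zfp949, a zinc finger gene, had the smallest p, with 558, 576 and 839.9 normalised reads in the libraries labelled knockout, against 180.1, 163 and 222 in the wild-type libraries (1.79 ± 0.22; chr9:88548020-88571061, plus strand). Nabp1, a single-stranded DNA binding protein, had 1332, 1201 and 1756 under the knockout label, against 572, 344 and 435 under the wild-type label (1.68 ± 0.24), and Tppp, a tubulin-binding protein, 1265, 1255 and 1305 under the knockout label, against 650.5, 430.4 and 604 under the wild-type label (1.20 ± 0.18). In each of the 3 genes the groups were far apart compared with their spread.

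Tfrc, the transferrin receptor of iron uptake, had 684, 605 and 494 normalised reads in the libraries labelled knockout, against 217, 221 and 300.2 in the wild-type libraries (1.27 ± 0.20), and Cp, the ferroxidase ceruloplasmin, had 2840.4, 2827 and 2608 under the knockout label, against 1261, 811 and 1318 under the wild-type label (1.32 ± 0.22). Eif4a2, a helicase of translation initiation, had 6486, 6226 and 5852 under the knockout label, against 3255, 2895 and 3055 under the wild-type label (1.01 ± 0.15), the groups being far apart and each tight. The dehydrogenase-like Sdr42e1 (0.88 ± 0.12) and Sdr39u1 (0.85 ± 0.14), the methyltransferase Hemk1 (0.83 ± 0.12) and the snoRNA host Snhg8 (1.11 ± 0.16) complete the 15. Of the chosen Sdr39u1 transcript 69.6% overlaps exons of Khnyn and of Snhg8 16.8% overlaps Snora24, so reads of these pairs cannot be told apart. The limma adjusted p was 0.496 or 0.503 for all 30 genes named this way, higher and lower.

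Mast cell genes were lower in the libraries labelled knockout. Mast cells store heparin-bound proteases in their granules, and in mice those of connective tissue carry the chymases Mcpt4 and Cma1, the tryptases Tpsb2 and Tpsab1 and the carboxypeptidase Cpa3. Of 11 markers, 7 passed the filter; the receptor genes Fcer1a, Ms4a2, Mrgprb1 and Mrgprb2 did not. Of the 7, 6 had a negative fold change, against 38.2% of all genes (50.5% after TMM scaling). The same 6 lay below wild type without overlap, against 4.55%, and all 6 were lower at an unadjusted limma p under 0.05, against 2.4%. Among them, Tpsab1 passed the filter through its wild-type values alone, so it adds no weight to these counts. The median was -2.23. DESeq2, run without that filter, called 7 of 11 lower, against 1.64% of its genes.

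Tpsb2 had 35.9, 50.8 and 54.5 normalised reads in the libraries labelled knockout, against 251, 203 and 214 in the wild-type libraries (-2.23 ± 0.24; chr17:25366305-25369098, plus strand). Mcpt4 had 41.1, 31.7 and 24.6 under the knockout label, against 130.4, 157 and 149 under the wild-type label (-2.15 ± 0.27), and Cma1 had 17.9, 24.5 and 50.8 under the knockout label, against 251, 157 and 134 under the wild-type label (-2.58 ± 0.46). In each of the 3 genes every knockout value was far below every wild-type value. Cpa3 had 3.66, 4.53 and 23.6 normalised reads in the libraries labelled knockout, against 114, 75.97 and 62.8 in the wild-type libraries (-3.27 ± 0.71), with knockout 3 well above the other knockout replicates. Tpsab1, close in sequence to Tpsb2 and perhaps sharing reads with it, had 0.259, 3.93 and 5.28 under the knockout label, against 35.8, 14.4 and 20.6 under the wild-type label (-2.77 ± 0.86). Hdc, which makes histamine, had 21.9, 20.3 and 35.97 under the knockout label, against 97.5, 50.9 and 44.97 under the wild-type label (-1.24 ± 0.42). Kit, the stem cell factor receptor, was the exception, with 291, 291 and 464 normalised reads in the libraries labelled knockout, against 264, 273 and 275 in the wild-type libraries (0.33 ± 0.21), slightly above wild type in all 3; other cells express it too.

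The smaller comparisons reuse the same replicates, so the 6 genes without overlap could only be below in both. The list's median was -1.83 with knockout 3 against wild type 1 and 3 and -2.22 with knockout 1 and 2 against wild type 2. Mean mast cell levels were 3.04, 3.31 and 4.30 in the libraries labelled knockout, against 5.77, 5.31 and 5.25 in the wild-type libraries.

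**Figure D3:**
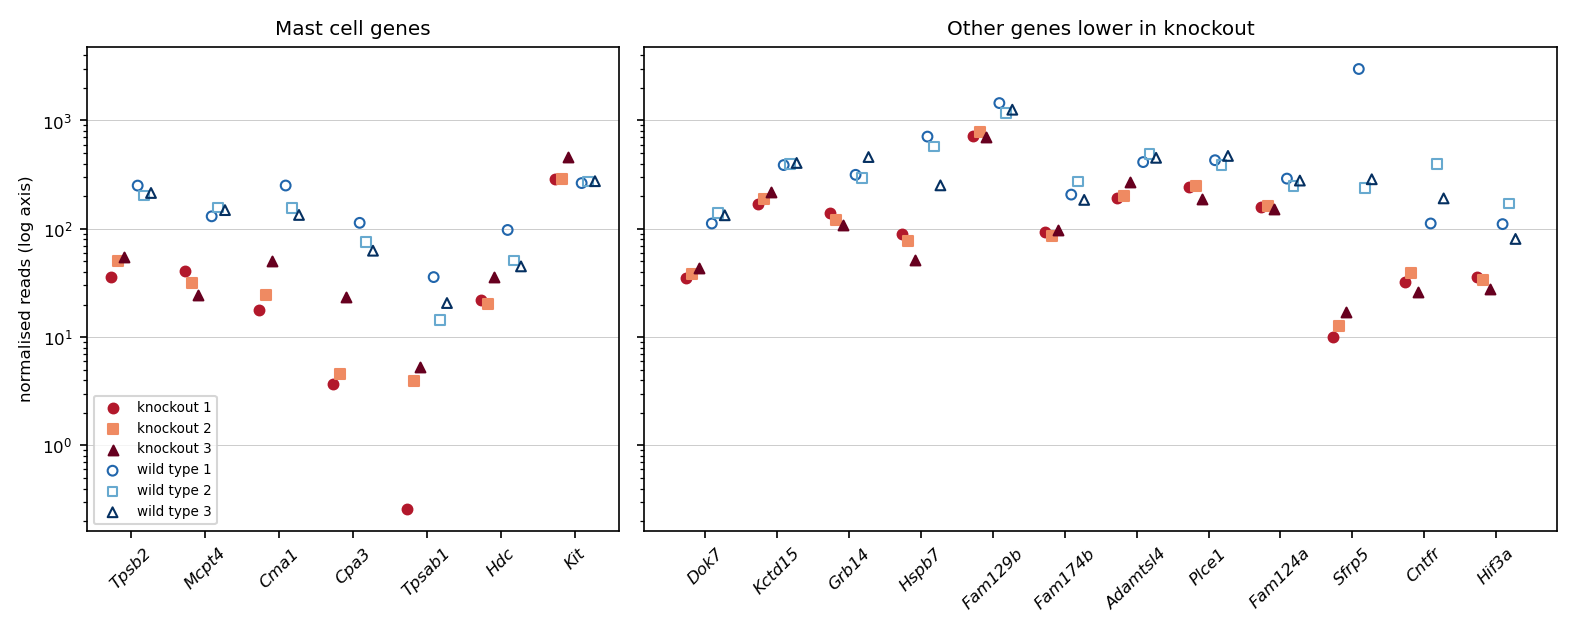
Normalised reads (log axis) of 7 mast cell genes and of the 12 other named genes that were lower, with each point 1 replicate (filled, knockout label, left; open, wild type, right of it). For all genes shown but Kit, every knockout point is below every wild-type point, and Sfrp5 has 1 wild-type point at 2988 against 238 and 287 in the others.

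Other blood cell lists overlapped in nearly all members. Macrophage markers had 17 of 18 lower, against 38.2% of all genes, with a median of -0.55. But 1 of 18, Lyve1, a receptor of resident macrophages, was without overlap (-0.61 ± 0.28), a share near the 4.55% of all genes. Lyz2 was 2694, 2789 and 3990.2 under the knockout label, against 9223, 3757 and 4810.4 under the wild-type label (-0.82 ± 0.37), with wild type 1 far above the rest, and C1qb (-0.67 ± 0.29), Cd68 (-0.81 ± 0.35), Clec10a (-0.56 ± 0.24), Itgam (-1.03 ± 0.46) and Csf1r (-0.55 ± 0.29) overlapped. B cell markers had 12 of 12 lower, against 38.2% of all genes, and a median of -1.38, with 0 without overlap. Cd79a had 13, 19.4 and 32.6 under the knockout label, against 514, 54.3 and 9.49 under the wild-type label, high in wild type 1 alone. T cell markers had 8 of 12 higher, a share near the 61.8% of all genes, and a median of 0.21. They overlapped throughout, as did the 4 of 9 neutrophil markers that passed (2 higher and 2 lower, median 0.24). The neutrophil gene Ltf stood at 7088, 7356 and 3.87 under the knockout label, against 1.15, 97.5 and 0.758 in wild type, again high in knockout 1 and 2.

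Among chemokines and NF-kB targets, 18 of 21 passed the filter, with a median of -0.01. Of these, 3 lay below wild type without overlap, against 4.55% of all genes. Ccl8, a chemokine of monocytes and mast cells, had 76.5, 78.2 and 101 normalised reads in the libraries labelled knockout, against 255, 166 and 148 in the wild-type libraries (-1.11 ± 0.27). Cxcl13, which draws B cells, had 14.5, 12.7 and 15.6 under the knockout label, against 311, 246 and 17.6 under the wild-type label (-2.89 ± 1.09); wild type 3 was hardly above the knockout values. Vcam1, an adhesion molecule, was at -0.43 ± 0.17. Relb (-0.38 ± 0.20), Cxcl9 (0.67 ± 0.48) and Tnfaip3 (-0.35 ± 0.26) overlapped. Interferon response genes had 13 of 20 lower, against 38.2% of all genes, 0 without overlap and a median of -0.16. Ifit2 (-0.49 ± 0.24) and Irf9 (0.51 ± 0.29) had the smallest p.

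The adrenergic list had genes on both sides of wild type, with a median of 0.00 (-0.11 after TMM scaling). Adrb1, the receptor of noradrenaline shared with the heart, had 17.6, 20.4 and 19.9 normalised reads in the libraries labelled knockout, against 60.8, 55.9 and 64.01 in the wild-type libraries (-1.60 ± 0.27). Every knockout value was far below every wild-type value. The main receptor of white fat, Adrb3, overlapped, with 14557, 14858 and 25205 under the knockout label, against 15717, 5945 and 20859 under the wild-type label (0.49 ± 0.52). Adra1a (-1.51 ± 0.59) lay below without overlap, and Pde8a (0.72 ± 0.29), a phosphodiesterase, and Gnas (0.31 ± 0.19), the gene of the stimulating G protein, lay above. Pde4d (-1.78 ± 0.60) overlapped, as did Pde3b, the phosphodiesterase of insulin action, at 0.00 ± 0.31.

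In insulin signalling, 2 genes stood out. Grb14, an adaptor that inhibits the insulin receptor, had 139, 121 and 109 normalised reads in the libraries labelled knockout, against 315, 296 and 459.7 in the wild-type libraries (-1.51 ± 0.22). Pik3r1, the regulatory subunit of phosphoinositide kinase, had 3916, 3795 and 3751 under the knockout label, against 1664, 2111 and 2365 under the wild-type label (0.92 ± 0.17). Both were without overlap, in opposite directions. Tbc1d4, which holds back glucose transporters until insulin acts, was above wild type (0.72 ± 0.29), as was Insr (0.24 ± 0.18) by a small margin, while Irs1 (0.45 ± 0.30) and Slc2a4 (-0.22 ± 0.36) overlapped. The list's median was 0.07, and -0.04 after TMM scaling.

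Of 15 adipokine genes 13 passed the filter, with a median of 0.12 (0.00 after TMM scaling). Sfrp5, a secreted Wnt antagonist, had 10, 12.7 and 16.9 normalised reads in the libraries labelled knockout, against 2988, 238 and 287 in the wild-type libraries (chr19:42197971-42202252, minus strand). The groups were far apart, wild type 1 was far above the other wild-type replicates, and the log2 fold change of -5.40 ± 0.98 was the most negative of all 15621 genes. Rbp4, the retinol carrier, lay above wild type, with 10876, 10951 and 13579.6 under the knockout label, against 7221, 2683 and 7725 under the wild-type label (1.14 ± 0.44). Rarres2, the gene of chemerin, overlapped by 1 value (-0.94 ± 0.35), and 44.9% of its transcript overlaps another gene. Adipoq, which makes adiponectin, was 0.44 ± 0.45, Retn, of resistin, 0.76 ± 0.57, Cfd, of adipsin, 0.95 ± 0.49, and Lep, of leptin, -0.14 ± 0.71, with overlap in each.

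The other named genes that were lower have diverse roles. Hspb7, a small heat shock protein of muscle, had 88.8, 77.6 and 51.6 normalised reads in the libraries labelled knockout, against 709.8, 575 and 252 in the wild-type libraries (-2.71 ± 0.44), and Hif3a, a hypoxia-inducible factor, had 35.6, 33.4 and 27.9 under the knockout label, against 110.4, 171 and 80.6 under the wild-type label (-1.81 ± 0.34). Cntfr, a receptor subunit for ciliary neurotrophic factor, had 32.2, 38.8 and 26.4 under the knockout label, against 112, 394 and 191 under the wild-type label (-2.63 ± 0.48). Dok7, an adaptor of the muscle kinase MuSK, had 35.4, 38.4 and 43.5 normalised reads in the libraries labelled knockout, against 112, 139.8 and 133 in the wild-type libraries (-1.69 ± 0.22), with each group tight. Smaller differences without overlap were those of Kctd15 (-1.05 ± 0.15), a BTB-domain protein, Adamtsl4 (-1.05 ± 0.18), a matrix protein that binds fibrillin, Plce1 (-0.93 ± 0.17), a phospholipase C, Fam129b (-0.81 ± 0.13), Fam174b (-1.23 ± 0.21) and Fam124a (-0.79 ± 0.14).

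Thermogenic genes, of which 12 of 15 passed the filter, had a median of -0.23, 8 of 12 being lower, against 38.2% of all genes. Kcnk3, a potassium channel of brown fat, had 188, 213 and 307 normalised reads in the libraries labelled knockout, against 531, 1122 and 448 in the wild-type libraries (-1.47 ± 0.39), without overlap. Cox7a1, given above, is also on this list. Dio2, the deiodinase, was low but above wild type at 1.02 ± 0.57, and Ppara (-0.67 ± 0.36) and Gk (2.28 ± 1.37) overlapped, Gk being high in knockout 1 and 2.

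Matrix genes were lower in 24 of 30 cases, against 38.2% of all genes. Of them 7 were without overlap, against 4.55%, and 8 passed an unadjusted limma p under 0.05, against 2.4%, with a median of -0.21 (-0.32 after TMM scaling). Fn1, fibronectin, had 1383, 1318 and 1362 normalised reads in the libraries labelled knockout, against 3681, 5273 and 1724 in the wild-type libraries (-1.25 ± 0.40). Col6a1, a chain of collagen VI, had 1766, 1769.98 and 2256 under the knockout label, against 5113, 3349.8 and 2475 under the wild-type label (-0.86 ± 0.29), and Col6a3, which also yields endotrophin, -0.68 ± 0.22. Thbs2, a matricellular thrombospondin, had 101, 115 and 125 normalised reads in the libraries labelled knockout, against 1674, 275 and 259.6 in the wild-type libraries (-2.11 ± 0.73), with wild type 1 far above the other wild-type replicates. Col18a1 (-0.74 ± 0.24), Timp2 (-0.42 ± 0.14), a metalloproteinase inhibitor, and Col1a2 (-0.46 ± 0.16) were the others without overlap. The basement membrane collagens Col4a1 (0.10 ± 0.23) and Col4a2 (0.27 ± 0.26) were not lower. DESeq2 called 6 of 30 lower, against 1.64% of its genes. Knockout 3 lay below wild type 1 and 3 in 14 of 30, against 22.9% of all genes, and knockout 1 and 2 below wild type 2 in 13 of 30, against 31.7%. The 7 without overlap could only lie below in both. The median was -0.26 with knockout 3 against wild type 1 and 3 and 0.01 with knockout 1 and 2 against wild type 2, where 14 of 30 lay above.

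Markers of the cells that make matrix gave lower values as well, though less evenly. Stromal progenitor markers had 10 of 14 lower, against 38.2% of all genes, and a median of -0.19. Fn1 alone was without overlap, and Pdgfra (-0.24 ± 0.16), Dcn (-0.51 ± 0.26), Lum (-0.79 ± 0.41), Dpt (-0.61 ± 0.36) and Loxl1 (0.49 ± 0.32) were not. All 10 mesothelial markers were lower, against 38.2% of all genes, with a median of -0.78, and 2 were without overlap, against 4.55%. Rspo1 (-0.81 ± 0.36) had 144, 125 and 96.2 under the knockout label, against 354, 174 and 154 under the wild-type label. The other was Wt1 (-0.67 ± 0.33). Wild type 1, the replicate high in mesothelial and B cell markers, was the highest for both genes, and the part of its cell content in the matrix values was not tested. Endothelial markers had 13 of 14 higher, against 61.8% of all genes, 0 without overlap, and a median of 0.31, with wild type 2 the lowest replicate.

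Clock genes had a median of -0.02, with 8 of 16 higher, against 61.8% of all genes. Per2 was below wild type without overlap (295, 273 and 219.9 normalised reads in the libraries labelled knockout, against 497, 365 and 1017 in the wild-type libraries; -1.12 ± 0.39). Dbp and Ciart, clock outputs, varied widely within wild type, Dbp at 741, 774 and 784 under the knockout label, against 473, 1699 and 3515 under the wild-type label; the hour of collection is not given in the labels. Of the 20 of 22 cell cycle genes that passed, 0 were without overlap and the median was 0.06 (-0.05 after TMM scaling), Rrm2 (0.81 ± 0.36) and Rrm1 (0.53 ± 0.29), which make deoxyribonucleotides, having the smallest p.

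**Figure D4:**
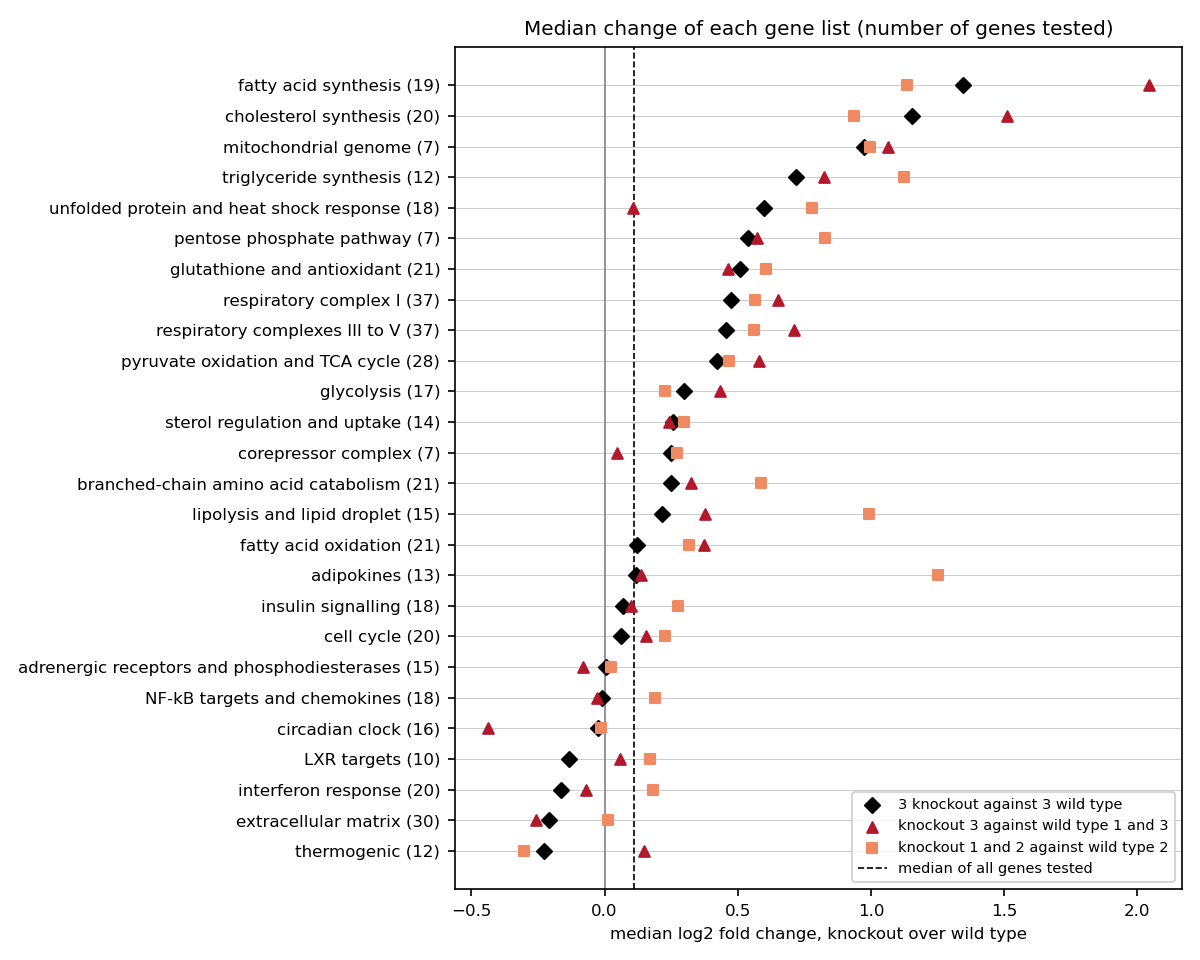
Median log2 fold change, knockout label over wild type, of 26 pathway lists (number of genes tested in brackets) for all 6 replicates (diamonds), for knockout 3 against wild type 1 and 3 (triangles) and for knockout 1 and 2 against wild type 2 (squares), with the median of all genes as a dashed line at 0.11. Fatty acid synthesis, cholesterol synthesis and the mitochondrial genome have medians of 0.94 or more in all 3 comparisons, while the unfolded protein list drops to 0.11 with knockout 3 against wild type 1 and 3.

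The same depot was also sequenced from mice on high fat diet at 11 weeks of age, with 4 replicates labelled knockout and 4 labelled wild type. Both tables were normalised separately and differ in age as well as diet, so only the difference between the 2 fold changes (chow minus high fat diet) was tested, as an interaction in limma over 13869 genes. It called 0 genes (0.0%) at an adjusted p under 0.05. At an unadjusted p under 0.05, the chow effect was above that on high fat diet in 1957 genes (14.1%) and below it in 454 (3.27%). Without knockout 3 it called 736. The median fold change of all these genes was 0.09 on chow and -0.09 on high fat diet.

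Medians of the lipid synthesis lists differed between the 2 tables, in which diet cannot be told apart from age. No single gene of these lists passed the adjusted threshold of the interaction. The median of the 20 cholesterol genes was 1.15 on chow, against 0.12 on high fat diet, and for 13 of 20 the chow effect was above at an unadjusted p under 0.05, against 14.1% of all genes. For 18 fatty acid synthesis genes the median was 1.34 on chow, against 0.21 on high fat diet, with 10 above. Among the 26 pathway lists these gaps were the widest, while some marker lists had wider ones: the median of epithelial markers was 2.22 on chow, against -0.53 on high fat diet, that of B cell markers -1.38 on chow, against 0.95 on high fat diet, and that of mesothelial markers -0.78 on chow, against 0.67 on high fat diet. The replicates show where the gap lay for Acat2, which on high fat diet had 1152, 1204, 1125 and 1094 normalised reads under the knockout label and 852, 1111, 1501 and 1304 in wild type, with overlapping groups. The difference of the 2 fold changes was 1.77 ± 0.28. That of Msmo1 was 1.44 ± 0.25.

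Respiratory genes behaved likewise. Counts above in brackets are at an unadjusted p under 0.05 in the interaction, to be read against 14.1% of all genes. The complex I median was 0.48 on chow and -0.16 on high fat diet (13 of 37 above), and that of complexes III to V was 0.46 on chow and -0.11 on high fat diet (9 of 37). For the mitochondrial genome the median was 0.97 on chow and 0.03 on high fat diet (4 of 7), and for the unfolded protein and heat shock list 0.60 on chow and -0.12 on high fat diet (9 of 18). Triglyceride synthesis differed less, at 0.72 on chow and 0.29 on high fat diet, with 0 of 12 above. In the opposite direction, mast cell genes had a median of -2.19 on chow and 0.18 on high fat diet, with the chow effect below for 4 of 6, against 3.27% of all genes. Macrophage markers had -0.55 on chow and 0.29 on high fat diet (7 of 18 below, against the same 3.27%).

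Of the mast cell genes, Tpsb2 on high fat diet had 51.6, 73.01, 92.7 and 72.97 normalised reads under the knockout label and 124, 59.8, 44.97 and 73.1 in wild type, and Cma1 had 63.4, 75.7, 94.2 and 60.8 under the knockout label and 97.7, 40.7, 36.04 and 55.9 in wild type. The groups overlapped there in both genes. The differences of the fold changes were -3.02 ± 0.55 for Cma1, -2.49 ± 0.47 for Mcpt4 and -2.25 ± 0.43 for Tpsb2. Others among the genes of smallest p were Sox18 (2.05 ± 0.37), an endothelial transcription factor, Zfp949 (1.43 ± 0.25), Itpk1 (1.74 ± 0.33), an inositol phosphate kinase, Dap (1.27 ± 0.21), Hnrnpa0 (0.90 ± 0.15), an RNA-binding protein, and Commd10 (0.81 ± 0.15), with the chow effect above. Those with the chow effect below were Errfi1 (-1.99 ± 0.45), an inhibitor of EGF receptors, Adam23 (-1.80 ± 0.39), Trim14 (-1.43 ± 0.31) and Tnfaip3 (-1.41 ± 0.28), the NF-kB inhibitor A20. The limma adjusted p of these 15 genes, Acat2 and Msmo1 included, lay between 0.153 and 0.174.

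**Figure D5:**
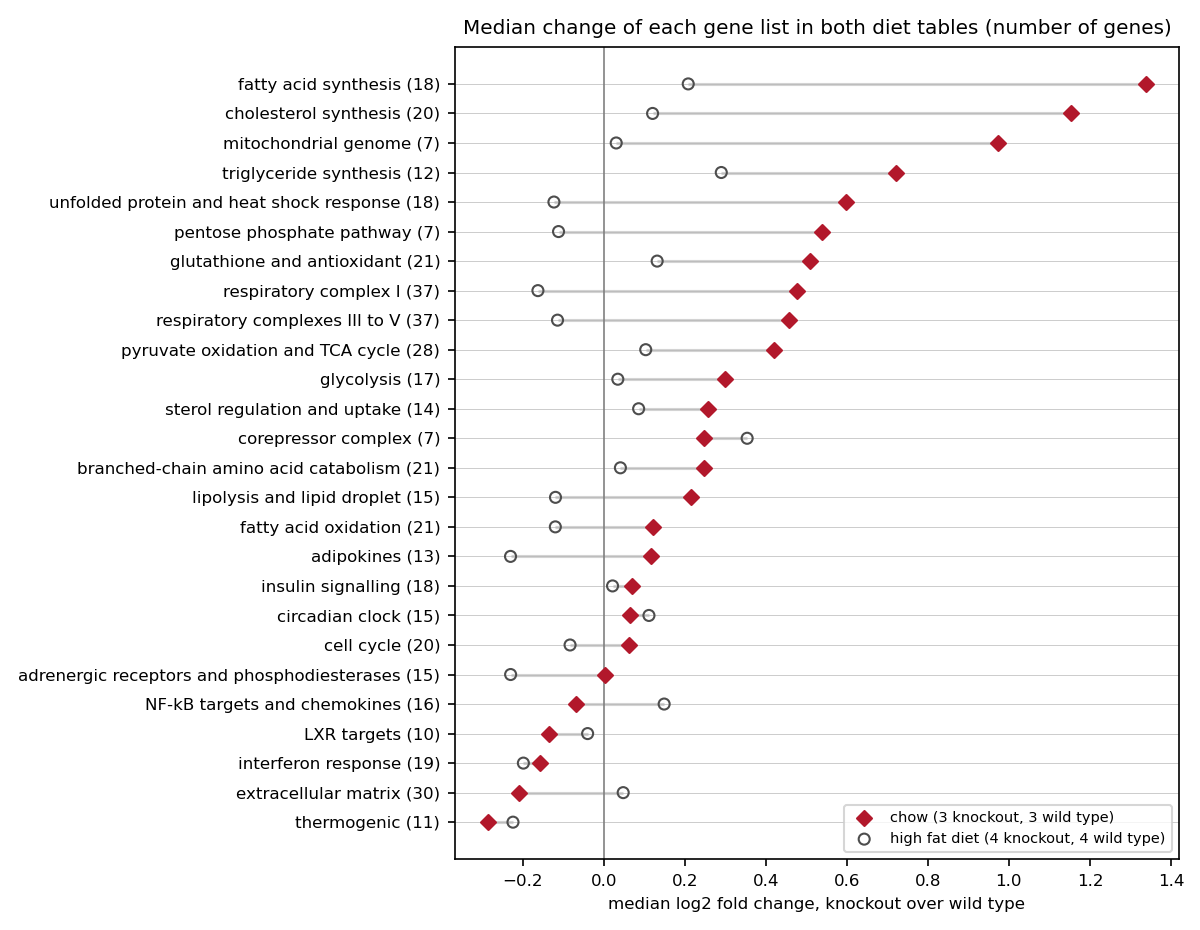
Median log2 fold change, knockout label over wild type, of 26 pathway lists (number of genes in both tables in brackets) on chow (filled, 3 and 3 replicates) and on high fat diet (open, 4 and 4). Cholesterol and fatty acid synthesis lie at 1.15 and 1.34 on chow, against 0.12 and 0.21 on high fat diet, while the corepressor complex is at 0.25 on chow and 0.35 on high fat diet.

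The genes named on chow were also read in the high fat diet table, whose libraries are separate. There limma called 142 genes higher (1.01%) and 343 lower (2.44%) of 14065 at an adjusted p under 0.05. At any size, 5121 of the 13869 genes of the interaction were higher on high fat diet, so most were lower. Of the 15 higher genes, 11 were higher on high fat diet, and 3 passed the test: Nabp1 (2.19 ± 0.21), Mogat2 (1.63 ± 0.29) and Cp (0.80 ± 0.18). Of the 15 lower genes, 12 were lower on high fat diet, as were most genes, and 6 passed the test. These were Sfrp5 (-4.76 ± 0.77), Dok7 (-2.0 ± 0.32), Hif3a (-1.39 ± 0.18), Fam174b (-1.13 ± 0.17), Fam129b (-0.89 ± 0.15) and Plce1 (-0.75 ± 0.12). The 3 mast cell proteases were the lower genes with a positive fold change there.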

How the data were processed

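Poly(A) RNA of whole fat was sequenced from strand-specific libraries, per the labels' protocols. The authors deposited a scaled read signal for every Ensembl transcript, that is, counts over the size factor of the library. Tools listed in the submitters' processing notes are STAR 2.4.0k, HTSeq 0.5.3, DESeq 1.8.3, SAMtools and bcl2fastq 2.17, with the build GRCm38.p4; a strand setting of the counting is not given there. In units of its smallest step, 100% of a column's values were whole within 0.01 of a read, and these were taken as recovered reads.

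A read can be listed under several isoforms, so 1 transcript was taken per gene, the one with the highest mean whose biotype matched the gene's. Of 93335 transcripts, 657 had no gene in GENCODE M21, which gave symbols and GRCm38 positions, and they held 0.334% of the signal; 50 identifiers sharing a symbol were dropped. In 6.04% of genes, exons of another gene covered over 50% of the transcript taken, and reads of such pairs cannot be told apart. Results on a few genes of the lists, which stay in the lists' counts and medians, are not reported here.

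The 4 libraries of a replicate were averaged. Limma 3.58.1 (R 4.3.3) with trend and robust moderation was run on log2(value + 1), for genes averaging at least 10, with a term for genotype, adjusted by Benjamini-Hochberg at 0.05. This scale understates the change of low genes, and fold changes are log2, knockout label over wild type, with SE. An exact permutation test of 3 against 3 cannot go below 0.10. The interaction with diet was fitted on chow and high fat diet replicates together, where 26039 genes were in both tables. Recovered reads were tested with edgeR 4.0.16 and DESeq2 1.42.0. Limma was tested on simulated data before use.

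Gene members were read from 40 lists (14 of cell markers, 26 of pathways), described by counts and medians with no set test. The members and lists were chosen with earlier results of these data known. The text names Gps2, the 15 genes of smallest p in each direction whose groups did not overlap and whose mean was at least 50 (leaving out pseudogenes, predicted genes and those of immunoglobulin or T cell receptor segments), all members of the cholesterol, mast cell and corepressor lists, up to 6 of smallest p of each other list and up to 8 of either sign for the diet difference. A few members outside that rule were named after their values were seen, to show genes of well-known role or the spread of a list. Alternatives were other scaling, filters, pseudocounts, moderation and tools, the replicate number as a block, single leading numbers, replicates left out, knockout 1 and 2 as 1 replicate, and the smaller comparisons. No label says that the replicate numbers pair the samples, and the main fit did not use them. Deviations from the group means correlated at -0.267, 0.527 and 0.505 for numbers 1, 2 and 3. For knockout 1 with wild type 2 they correlated at 0.516. With so few replicates these values cannot show whether the numbers pair. Promoters are from RefSeq (GRCm38.p6).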

Additional observations from a re-analysis of the deposited data

How the results depend on the processing

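The comparison rests on 3 replicates a side, of which knockout 1 and 2 were nearly alike and share epithelial and epididymal RNA, so the spread within the knockout label is set mostly by knockout 3. Wild type 2 carried epithelial and muscle RNA and wild type 1 B cell RNA, and the part of these in the list values was not tested. The smaller comparisons match the epithelial level alone. Depth was similar in all replicates and did not limit the genes named; members below the filter cannot be read. On the log2(value + 1) scale the change of low genes is understated.

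Counts of genes moved most. Genes past an adjusted p of 0.05 numbered 0 in limma and edgeR, 918 in DESeq2, and 0 to 650 when 1 replicate was left out, the 650 without knockout 3. There was 1 without trend and robust moderation (Igkv6-23, an immunoglobulin segment at 0 in all libraries labelled knockout) and 1 with knockout 3 against wild type 1 and 3, where the spread comes from the wild-type replicates alone. Genes higher at an unadjusted p under 0.05 were 1131 in limma, 724 after TMM scaling, 2027 in DESeq2, 366 with knockout 1 and 2 as 1 replicate and 479 with knockout 3 against wild type 1 and 3. They ranged from 363 (without knockout 2) to 2074 (without knockout 3), with 366 without knockout 1 and 536 without wild type 1. Genes lower were 375 in limma, 742 after TMM scaling, 918 in edgeR, 1442 in DESeq2, 564 with no filter and 130 with knockout 1 and 2 as 1 replicate. They ranged from 130 (without knockout 2) to 856 (without wild type 2), with 138 without knockout 1. The diet difference ranged from 0 to 736 genes when a chow replicate was left out, with 736 without knockout 3, 10 without wild type 2 and 6 without wild type 3.

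It is not known if the replicate numbers pair the samples. With the number as a block, limma called 0 genes, with 1439 higher and 409 lower at an unadjusted p under 0.05. Whether knockout and wild-type replicates of 1 number share a litter or a day is not given.

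The Gps2 fold change of 0.04 turned negative after TMM scaling (-0.072), in edgeR (-0.073) and DESeq2 (-0.079) and with leading number 4 alone (-0.045), and ranged from -0.11 (without wild type 2) to 0.18 (without wild type 3) when a replicate was left out, with -0.034 without knockout 3. It was past the threshold in none of these.

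List medians kept their sign in most settings. With knockout 1 and 2 against wild type 2, after a filter on those replicates, they were 1.26 for adipocyte markers, 1.25 for adipokines, 0.99 for lipolysis, 0.96 for endothelial markers, 0.94 for cholesterol synthesis, 0.28 for insulin signalling, 0.23 for cell cycle, -0.0089 for stromal markers, -0.18 for macrophage markers, -0.54 for thermogenic genes and -4.24 for muscle markers. With knockout 3 against wild type 1 and 3 they were 2.04 for fatty acid synthesis, 1.51 for cholesterol synthesis, 0.43 for glycolysis, 0.11 for the unfolded protein list, 0.031 for thermogenic genes, -0.44 for clock genes and -2.01 for mesothelial markers. With TMM scaling, cell cycle was at -0.052, glycolysis at 0.18 and sterol regulation at 0.14. In DESeq2 these were -0.057, 0.18 and 0.11, the corepressor list -0.079 and all genes -0.026. In edgeR sterol regulation was 0.12 and the corepressor list -0.073. With a minimum mean of 50 the neutrophil list was 6.46, since Ltf alone remained.

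When 1 replicate was left out, medians ranged from 0.88 (without knockout 3) to 1.54 for fatty acid synthesis, 0.38 to 1.12 (without knockout 3) for the unfolded protein list, 0.22 to 0.37 (without wild type 2) for sterol regulation, -0.30 (without wild type 2) to 0.27 (without wild type 3) for the adrenergic list and -0.43 (without wild type 1) to 0.050 for clock genes. They ranged from -0.30 to 0.023 (without wild type 1) for stromal markers and -0.62 (without knockout 3) to 0.025 (without wild type 3) for thermogenic genes. Why these moved was not tested. Of single named genes other than Gps2 under all settings, 754 values kept direction and side of the threshold, 64 passed it in addition, 29 of them in DESeq2 and 31 without knockout 3, and 0 reversed. The genes named on chow were picked for groups without overlap, so leaving out a replicate could not reverse them. None of the named genes had passed the threshold in the first fits, so none could lose it. These counts are therefore no measure of how stable the genes are.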
